A study of Mus musculus with 15 samples.

Results

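Peaks of Cbx2 and of RYBP, proteins of different forms of Polycomb repressive complex 1 (PRC1), were compared in early cardiac mesoderm precursors (MES) of the mouse. The comparison took every peak of the Cbx2 list and of the RYBP list on chromosomes 1 to 19 and called a peak shared when it met a peak of the other list by 1 bp or more. It held 3600 Cbx2 peaks and 7494 RYBP peaks, 11094 of the 30692 peaks in the 5 deposited lists. The MES were differentiated with BMP4, typically at 0.1 to 0.3 ng/ml per the labels, from E14Tg2A embryonic stem cells (ESCs), a mouse line, and no genetic change was labelled for the ChIP-seq samples. The protocol describes an enriched culture, so each list comes from bulk chromatin. Each protein was precipitated with 5 ug of its own antibody, from Bethyl for Cbx2 and from Millipore for RYBP. The other lists, used below as further readouts, were MES Mel18, MES Ring1b and ESC Mel18. Each list was from 1 library, with read depth unknown, so no difference between antibodies has a replicate check, and differences between the lists cannot be told apart from differences in depth or antibody. No expression values were used, so the labelled cell type was not checked against markers. Peaks are named by mm9 coordinates, and no gene was assigned to them.

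PRC1 is built on the E3 ligase Ring1b or its relative Ring1a, which attach ubiquitin to histone H2A, together with a protein of the PCGF family. Canonical PRC1 holds Mel18 or its relative Bmi1 and carries a Cbx protein, whose chromodomain binds the H3K27me3 mark that PRC2 writes, and it is known for compacting chromatin. Variant PRC1 carries RYBP or its relative YAF2 in place of Cbx and can be recruited without H3K27me3, for example at CpG islands. Cbx and RYBP bind the same surface of Ring1b and exclude each other from 1 complex. A stretch in both lists can therefore hold both forms on the same or on different chromosome copies or cells, which bulk chromatin does not separate. A meeting of peak calls by 1 bp or more does not by itself show that both forms are there.

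Most Cbx2 peaks lay on RYBP, whereas most RYBP peaks lay away from Cbx2. Of the Cbx2 peaks, 2715 of 3600 (75.4%, exact Clopper-Pearson interval at 95% of 74.0 to 76.8) met a RYBP peak, and 885 did not. Of the RYBP peaks, 3428 of 7494 (45.7%, interval 44.6 to 46.9) met a Cbx2 peak, and 4066 did not. The lists differed in number but hardly in the sequence they covered, at 13.4 Mb for Cbx2 and 12.9 Mb for RYBP, of which 7.02 Mb was common to both. This common sequence made up 52.5% of the Cbx2 bases and 54.4% of the RYBP bases. Shared peaks carried 89.7% of all Cbx2 bases and 56.0% of all RYBP bases. The intervals count peaks as independent, although 1 stretch can be split into several peaks, so they can be too narrow. With the RYBP list limited to its 3600 highest-scoring peaks, the order of the shares turned, at 55.4% of Cbx2 peaks and 64.3% of RYBP peaks.

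Sharing went with score rank in both lists. The score is the authors' value for each peak and was used only to rank peaks within 1 list, in 10 classes of near-equal size. In the Cbx2 list, 36.1% of peaks (130 of 360, interval 31.1 to 41.3) met RYBP in the lowest class, 76.1% in the fifth class and 99.7% (359 of 360, interval 98.5 to 100) in the highest. The share was higher in each class than in the one below it. In the RYBP list the share on Cbx2 went from 18.4% (138 of 749, interval 15.7 to 21.4) in the lowest class to 39.5% in the fifth and 81.6% (612 of 750, interval 78.6 to 84.3) in the highest. With peak centres within 1 kb in place of overlap, the Cbx2 shares were 35.8% in the lowest and 60.8% in the highest class. The latter was under the 67.6% of the whole list. The RYBP shares under this rule were 10.8 and 52.3%. Cbx2 peaks of the highest class had a median width of 9.96 kb, so a RYBP peak wholly inside can miss the centre rule. How much of the lower share goes with this was not tested. Unshared peaks were found at different heights in the lists. Only 26 of the 885 unshared Cbx2 peaks (2.94%) were in the upper score quartile of their list, against 471 of the 4066 unshared RYBP peaks (11.6%). The lowest score quartile held 53.6% of the unshared Cbx2 peaks and 36.2% of the unshared RYBP peaks. These shares are bound up with the number of unshared peaks. The lowest Cbx2 quartile had 900 peaks and could hold all 885 unshared ones. The lowest RYBP quartile had 1873 peaks and could not hold all 4066. How much of the contrast goes with this was not tested.

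**Figure D1:**
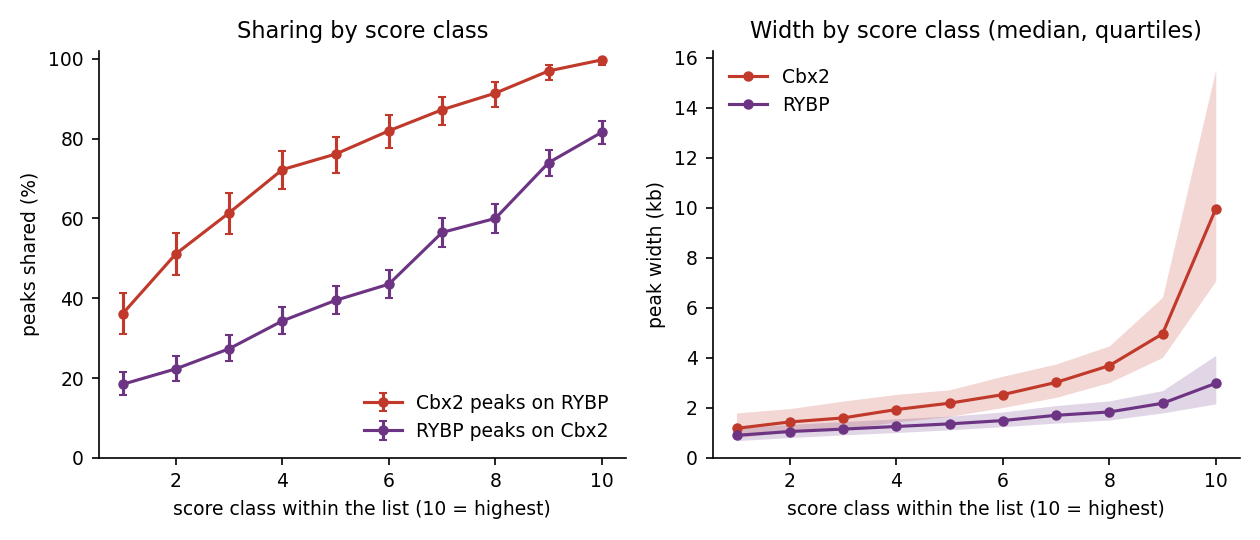
Left, the percentage of Cbx2 peaks that met a RYBP peak (red) and of RYBP peaks that met a Cbx2 peak (purple) in each of 10 score classes of the list, with exact intervals at 95% as bars. Right, the median width of the peaks in kb with the quartiles as a band; sharing reached 99.7% for Cbx2 and 81.6% for RYBP in the highest class, where the median widths were 9.96 and 2.98 kb.

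High-ranked Cbx2 peaks tended to meet at least 1 high-ranked RYBP peak. Among shared Cbx2 peaks of the highest quartile, the best-ranked RYBP peak they met was in the highest RYBP quartile for 74.9% (655 of 874) and in the lowest for 2.29%. Among shared Cbx2 peaks of the lowest quartile these values were 22.1% (94 of 426) and 16.9%. All Cbx2 peaks of the highest quartile met a mean of 1.68 RYBP peaks, against 0.478 in the lowest. The best of more peaks ranks higher by itself, and how much of the difference goes with this was not tested. The relation was looser from the RYBP side. Of all shared RYBP peaks, 44.2% (1516 of 3428) met a Cbx2 peak of the highest quartile. By RYBP quartile this share was 40.4% in the lowest (163 of 403), 34.2% in the second, 32.0% in the third and 58.4% in the highest (819 of 1403), so it did not go steadily with RYBP rank.

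Shared peaks were wider than unshared peaks, by far more in the Cbx2 list. Shared Cbx2 peaks had a median width of 2984 bp (quartiles 2090 and 4661) and unshared ones 1274 bp (quartiles 891 and 1905). Shared RYBP peaks had a median of 1794 bp (quartiles 1288 and 2498) and unshared ones 1309 bp (quartiles 995 and 1703). Pooled over score ranks, unshared peaks of both lists were therefore of nearly the same median width. Within score quartiles of each list, this held only in the lowest. Unshared Cbx2 and RYBP peaks had medians of 978 and 1013 bp in the lowest quartile and 1479 and 1281 bp in the second. The medians were 2295 and 1570 bp in the third and 3482 and 1859 bp in the highest. Peaks of 10 kb or more numbered 207 in the Cbx2 list and 11 in the RYBP list, and all 207 of the Cbx2 peaks were shared. A wider peak offers more bases to be met, so width and sharing are not independent measures.

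**Figure D2:**
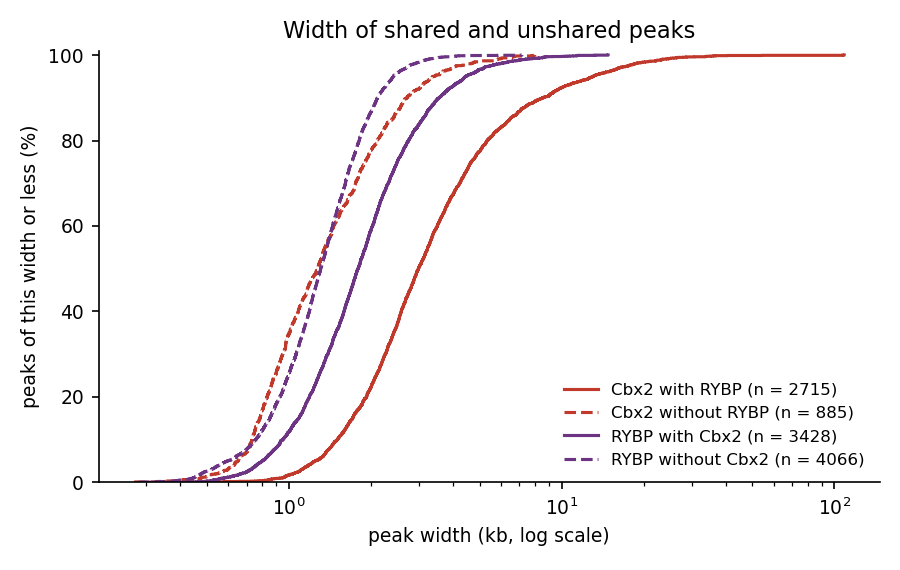
Cumulative percentage of peaks (vertical axis) by width in kb on a log scale (horizontal axis), for shared (solid) and unshared (dashed) peaks of Cbx2 (red) and RYBP (purple). The dashed curves lie close together, at medians of 1274 and 1309 bp, and the solid Cbx2 curve lies farthest to the right, at a median of 2984 bp.

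Width and rank separated differently in each list. Within every score quartile of the Cbx2 list, shared peaks were the wider, at medians of 1792 against 978 bp in the lowest quartile and 5859 against 3482 bp in the highest. In the lower 2 quartiles of the RYBP list, shared and unshared peaks did not differ in this way, with medians of 985 against 1013 bp in the lowest quartile and 1275 against 1281 bp in the second. Only in the highest RYBP quartile was the gap large, at 2524 against 1859 bp. The same held for the shares. In the lowest Cbx2 quartile, 9.59% of peaks under 1 kb (26 of 271), 54.7% of those of 1 to 2 kb and 80.8% of those of 2 to 5 kb (168 of 208) met RYBP. In the lowest RYBP quartile the corresponding shares on Cbx2 were 22.2% (205 of 922), 20.8% and 20% (11 of 55), and the intervals of these overlapped. In the highest RYBP quartile, 57.3% of peaks of 1 to 2 kb (366 of 639) met Cbx2, against 83.2% of those of 2 to 5 kb (923 of 1109) and 96.3% of those of 5 to 10 kb (103 of 107).

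Where 1 Cbx2 peak met 1 RYBP peak, the Cbx2 peak usually enclosed the RYBP peak. Such pairs numbered 2309, or 85.0% of the shared Cbx2 peaks. The median width in them was 2719 bp for Cbx2 and 1755 bp for RYBP, and the median of the width ratio was 1.54 (quartiles 1.20 and 1.98, exact interval of the median 1.50 to 1.57). The Cbx2 peak was the wider in 2078 pairs (90.0%, interval 88.7 to 91.2) and was 2 times as wide or more in 562 (24.3%), whereas RYBP was 2 times as wide or more in 5 (0.217%). The RYBP peak lay wholly inside in 1632 pairs (70.7%). Over all 3435 meetings of a Cbx2 with a RYBP peak, RYBP lay wholly inside in 78.1%, crossed 1 edge in 19.6% and reached beyond both edges in 2.30%. A RYBP peak bridged 2 Cbx2 peaks in 7 cases.

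**Figure D3:**
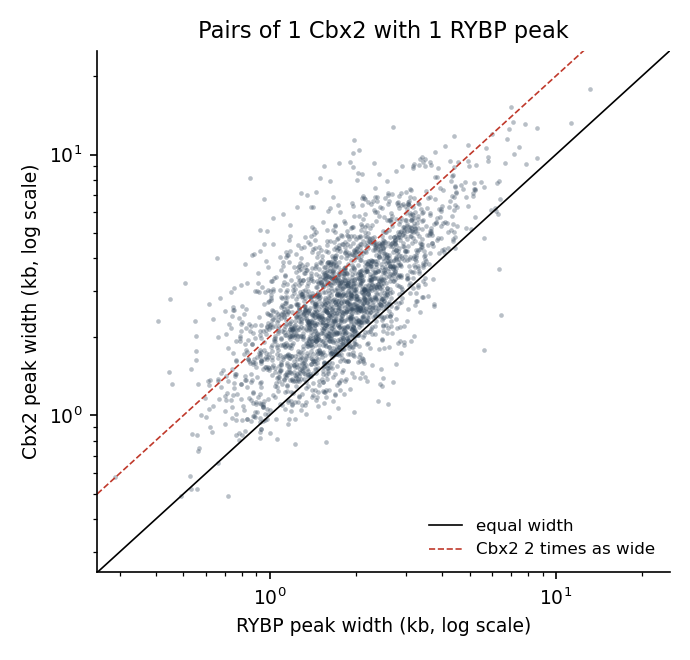
Width of the Cbx2 peak (vertical axis) against width of the RYBP peak (horizontal axis), both in kb on log scales, for the 2309 pairs in which 1 Cbx2 peak met 1 RYBP peak; each point is a pair. Of the points, 90.0% lie above the solid line of equal width and 24.3% on or above the dashed line where Cbx2 was 2 times as wide.

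The excess of Cbx2 width differed with Cbx2 rank. The median ratio was 1.21 in the lowest Cbx2 quartile (419 pairs), 1.35 in the second, 1.63 in the third and 1.87 in the highest (554 pairs). Cbx2 reached a median of 758 bp beyond RYBP at the end with the larger overhang and 148 bp at the end with the smaller one, ends that were sorted by size in each pair. The centres lay a median of 253 bp apart. The smaller overhang had a median of -17 bp (interval -38 to 4) in the lowest Cbx2 quartile and 601 bp (interval 538 to 674) in the highest, where Cbx2 thus usually reached past RYBP at both ends. Rank and width are bound up here, since wide Cbx2 peaks ranked high.

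Most shared Cbx2 peaks held 1 RYBP peak, and a few very wide ones held many. Of the 3600 Cbx2 peaks, 885 held none, 2321 held 1, 239 held 2, 85 held 3, 31 held 4, 24 held 5, 8 held 6 and 3 held 7, and 4 peaks held 10, 13, 18 and 27. Thus 394 of the 2715 shared peaks (14.5%, interval 13.2 to 15.9) held 2 or more, and these contained 1114 of the 3428 shared RYBP peaks (32.5%). In 1972 shared Cbx2 peaks (72.6%) every RYBP peak lay wholly inside. Without Cbx2 peaks of 10 kb or more, the share with 2 or more was 8.25%. With peaks of each list within 1 kb of each other joined, it was 8.85%, so the count rests in part on how a stretch was split.

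The number of RYBP peaks went with the width of the Cbx2 peak, but the share of its bases under RYBP did not go on with it. Cbx2 peaks under 1 kb met RYBP in 13.3% of cases (47 of 353) and those of 1 to 2 kb in 59.4%. The share was 89.1% at 2 to 5 kb, 96.7% at 5 to 10 kb and 100% (207 of 207, interval 98.2 to 100) at 10 kb or more. The mean number of RYBP peaks was 0.133 under 1 kb, 0.928 at 2 to 5 kb, 1.36 at 5 to 10 kb and 3.35 at 10 kb or more. Per 10 kb of Cbx2 sequence, RYBP peaks numbered 1.67 under 1 kb, 3.98 at 1 to 2 kb, 2.01 at 5 to 10 kb and 1.91 at 10 kb or more. RYBP covered 12.1% of the bases of Cbx2 peaks under 1 kb, 46.9% at 1 to 2 kb, 55.0% at 2 to 5 kb, 51.2% at 5 to 10 kb and 55.3% at 10 kb or more.

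Mel18 and Ring1b, whose peaks were not used to choose these classes, followed wide Cbx2 peaks more closely than RYBP did. In Cbx2 peaks of 10 kb or more, Mel18 covered 91.6% and Ring1b 85.6% of the bases, against 55.3% for RYBP. The same peaks held a mean of 1.57 Mel18 and 1.86 Ring1b peaks but 3.35 RYBP peaks. The RYBP peak calls were therefore the most fragmented of the 3 over wide Cbx2 stretches. At 1 to 2 kb, in contrast, the cover was alike, at 46.9% for RYBP, 42.3% for Mel18 and 44.6% for Ring1b. In the 2226 Cbx2 peaks met by all 3 other MES lists, the median cover per peak was 60.7% for RYBP (quartiles 47.5 and 74.7), 86.4% for Mel18 (quartiles 70.7 and 96.0) and 76.4% for Ring1b (quartiles 61.5 and 88.5). These are single libraries of unknown depth, and whether depth takes part in the difference was not tested. The lists also differed in score. On all chromosomes, 360 Mel18 and 284 Ring1b peaks had a score of 3100, but 0 RYBP peaks did.

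**Figure D4:**
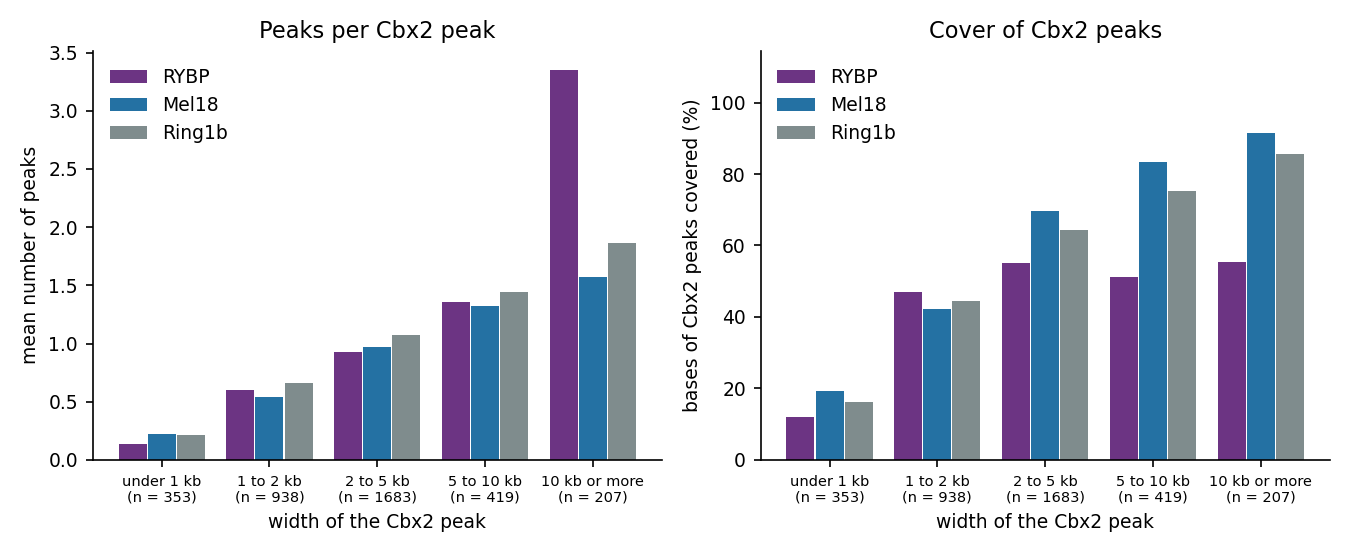
Left, the mean number of RYBP, Mel18 and Ring1b peaks of MES that met a Cbx2 peak, and right, the percentage of Cbx2 peak bases under peaks of each, by width of the Cbx2 peak, with the number of Cbx2 peaks under each class; bars have no error as each list is 1 library. At 10 kb or more RYBP has the highest bar for number (3.35) and the lowest for cover (55.3%).

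RYBP peaks lay near the middle of narrow Cbx2 peaks and were spread along wide ones. The distance of the RYBP centre from the Cbx2 centre, given as a percentage of the distance from centre to edge, had a median of 18.3% (quartiles 8.18 and 32.0) where a Cbx2 peak met 1 RYBP peak. In these, 91.2% of RYBP centres lay in the inner 50% of the peak. Where a Cbx2 peak met 2 or more, the median was 44.7% and 56.8% of the centres lay in the inner 50%, near the 50% that an even spread along the peak would give. In Cbx2 peaks of 10 kb or more the median was 45.8%, and 55.3% of the centres lay in the inner 50%. A RYBP peak of about the width of its Cbx2 peak must lie near its middle, so this measure is bound up with relative width. RYBP peaks do not overlap each other, so 2 or more in 1 Cbx2 peak cannot all lie at its middle. The contrast with single RYBP peaks is thus partly set by the split on number. A RYBP peak wholly inside also has its centre kept from the edges, so 50% is only a rough guide.

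The 5 Cbx2 peaks that held the most RYBP peaks were also the 5 widest. The widest, at chr11:96110689-96219299 (108611 bp), held 27 RYBP peaks, all wholly inside, which covered 71.9% of it. The next, at chr6:52099302-52206068 (106767 bp), held 18 RYBP peaks over 68.2% of its length. Those at chr2:74500902-74555032, chr11:96029548-96070094 and chr5:120104701-120141467 held 13, 10 and 7, over 63.3, 43.3 and 45.5% of their length. As background, the Hox clusters, long stretches of developmental regulators that are classic Polycomb targets, lie on chromosomes 2, 6, 11 and 15 of the mouse; no mm9 annotation was used here to place them. The 2 widest Cbx2 peaks were alike in RYBP peaks but not in peaks of the other subunits. Mel18 and Ring1b peaks covered 99.1 and 98.6% of the one on chromosome 6, but 8.94% and 0% of the wide one on chromosome 11. The median cover of Cbx2 peaks of 10 kb or more was 95.9% for Mel18 and 88.5% for Ring1b. Whether these proteins or only their peak calls are missing over most of the chromosome 11 stretch was not tested. In score the 2 widest peaks were 575th (chromosome 11) and 527th (chromosome 6) of the Cbx2 list, whereas the other 3 were among the 322 peaks tied at a score of 3100.

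Within these wide peaks, RYBP peaks of very unlike rank lay side by side. The 27 on chromosome 11 had a median width of 2594 bp (range 728 to 10236) and ranged from 29th to 7080th of the 7494 RYBP peaks, with 11 in the highest score quartile and 4 in the lowest. The 18 on chromosome 6 had a median width of 3670 bp, ranged from 7th to 6996th and had 14 in the highest quartile. Median gaps between neighbouring RYBP peaks were 490 bp on chromosome 11 and 1166 bp on chromosome 6. The 10 in the other chromosome 11 peak were narrower, at a median of 1396 bp, and 1 was in the highest quartile.

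The 5 Cbx2 peaks with the highest scores held 1 to 3 RYBP peaks each, beside a mean of 2.36 in the highest score class and 1.27 over all shared Cbx2 peaks. They lay at chr16:17795226-17809023 (with 3 RYBP peaks), chr12:96928886-96935951 (with 2), chr2:19363378-19377845 (with 3), chr16:92693160-92701356 (with 1) and chr12:54350822-54355513 (with 2). RYBP covered 69.1, 59.1, 32.7, 46.3 and 65.4% of them, whereas Mel18 covered 93.2 to 100%. The widest RYBP peaks were all wholly under Cbx2. These lay at chr2:33484326-33499131 (14806 bp), chr11:85642493-85655768 and chr11:21892554-21903962, chr4:109647019-109660138 and chr5:140018905-140030312, and ranked 1038th, 2761st, 129th, 532nd and 5th in score. Each met 1 Cbx2 peak and also met Mel18 and Ring1b.

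Cbx2 peaks without RYBP were mostly narrow and low-ranked, and a part of them lay near a RYBP peak. Their median width was 1274 bp and their median distance to the nearest RYBP peak was 18.0 kb. Of the 885, 109 (12.3%) lay within 1 kb, 297 (33.6%) within 5 kb and 384 (43.4%) within 10 kb of RYBP. The nearness went with rank, with a median distance of 29.3 kb in the lowest Cbx2 quartile (474 peaks) and 3.62 kb in the highest (26 peaks). Within 10 kb of a shared Cbx2 peak lay 340 (38.4%, interval 35.2 to 41.7). The unshared Cbx2 peaks of highest score lay at chr2:61640482-61646323 and chr2:116377927-116385698, chr13:78310256-78316220, chr9:91303409-91305894 and chr1:157574829-157581573. They were 357th to 472nd in score and lay 2694, 944, 2116, 2572 and 1571 bp from RYBP. All 5 met Mel18, and 4 met Ring1b, the exception being the peak on chromosome 2 from 116377927.

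RYBP peaks without Cbx2 were far from Cbx2. Their median distance to the nearest Cbx2 peak was 169.7 kb, and 38 of 4066 (0.935%) lay within 1 kb, 131 (3.22%) within 5 kb and 224 (5.51%) within 10 kb. In the highest RYBP quartile the median was 186 kb (471 peaks), so high rank did not bring them nearer. Within 10 kb of a shared RYBP peak lay 158 (3.89%, interval 3.31 to 4.53). The RYBP list is the longer, which by itself shortens distances to it, and how much of the gap between the medians of 18.0 and 169.7 kb goes with list length was not tested. The unshared RYBP peaks of highest score lay at chr17:80771874-80774096, chr2:119697821-119699676, chr16:17758916-17761178 and chr11:3547890-3550312 and chr11:69153100-69155334. They were 2nd, 20th, 23rd, 26th and 27th of the RYBP list, and their distances to Cbx2 were 568.2, 111.5, 34.0, 18.1 and 11.2 kb. All 5 met Ring1b, and those on chromosomes 17 and 16 and the one on chromosome 11 from 69153100 also met Mel18.

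The other PRC1 subunits differed sharply between the classes. Of all Cbx2 peaks, 73.9% met MES Mel18 and 78.8% met MES Ring1b, and of all RYBP peaks 45.8% and 76.1% did. Cbx2 peaks with RYBP met Mel18 in 83.9% (interval 82.4 to 85.2) and Ring1b in 92.2% of cases (interval 91.2 to 93.2). Cbx2 peaks without RYBP met Mel18 in 43.2% (interval 39.9 to 46.5) and Ring1b in 37.4% (interval 34.2 to 40.7). RYBP peaks without Cbx2 met Mel18 in 12.3% (interval 11.3 to 13.4) but Ring1b in 62.5% (interval 61.0 to 64.0). With the upper 50% of the Cbx2 and RYBP lists by score, where a peak counted as unshared can still meet a lower-ranked peak of the other list, Mel18 and Ring1b were at 93.4 and 91.0% of Cbx2 peaks without RYBP, and at 33.2 and 85.0% of RYBP peaks without Cbx2. In the full lists the catalytic subunit was frequent at RYBP sites without Cbx2, where the PCGF subunit Mel18 was infrequent. The MES Ring1b list was the longer, with 8434 peaks against 4048 for MES Mel18 on these chromosomes. How much of the difference between Ring1b and Mel18 goes with list length was not tested.

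Over all score ranks together, both subunits were the rule at shared sites and the exception elsewhere. Of the Cbx2 peaks with RYBP, 82.0% met both Mel18 and Ring1b, 10.2% Ring1b without Mel18, 1.88% Mel18 without Ring1b and 5.89% neither. Of the Cbx2 peaks without RYBP, 31.8% met both, 5.65% Ring1b without Mel18, 11.4% Mel18 without Ring1b and 51.2% (453 of 885) neither. Of the RYBP peaks without Cbx2, 10.5% met both, 52.1% (2117 of 4066) Ring1b without Mel18, 1.87% Mel18 without Ring1b and 35.6% neither. Over all ranks, the most frequent pattern of unshared peaks was therefore neither subunit for Cbx2, and Ring1b without Mel18 for RYBP. Within score quartiles this differed. Cbx2 peaks without RYBP met both in 92.3% of the highest quartile (24 of 26), 76.6% of the third and 45.1% of the second. In the lowest Cbx2 quartile 9.07% met both and 74.9% neither. Of RYBP peaks without Cbx2 in the lowest quartile, 55.2% met neither.

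**Figure D5:**
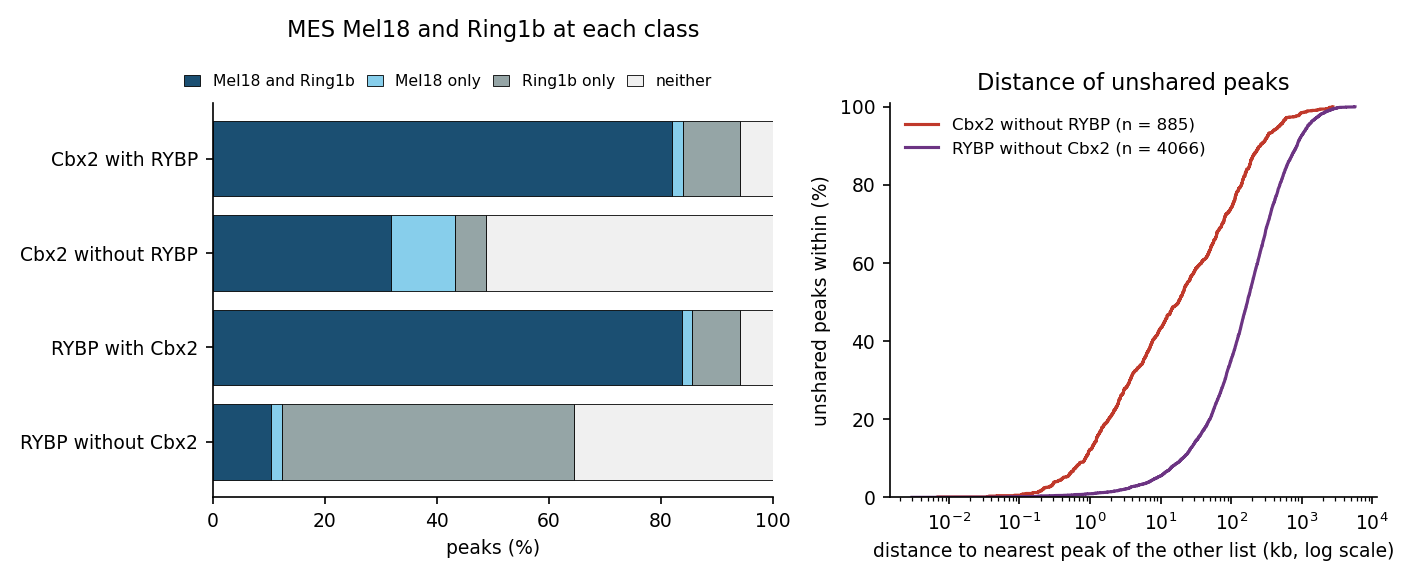
Left, the percentage of peaks of each class that met both MES Mel18 and Ring1b, 1 of them, or neither. Right, the cumulative percentage of unshared Cbx2 (red) and RYBP (purple) peaks by distance to the nearest peak of the other list, in kb on a log scale; Ring1b without Mel18 takes 52.1% of RYBP peaks without Cbx2, and the curves have medians of 18.0 and 169.7 kb.

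In the Cbx2 list these gaps were small at high score rank, whereas in the RYBP list the Mel18 gap was wide at every rank. In the highest Cbx2 quartile, peaks with and without RYBP met Mel18 in 100% (874 of 874) and 100% (26 of 26) of cases and Ring1b in 99.8 and 92.3%. In the lowest quartile the shares were 49.5 against 19.4% for Mel18 and 76.1 against 14.8% for Ring1b. For RYBP, peaks with Cbx2 met Mel18 in 76.7% (309 of 403) and those without in 7.07% (104 of 1470) in the lowest quartile. In the highest RYBP quartile these were 92.0% (1291 of 1403) and 21.9% (103 of 471). Ring1b behaved otherwise, at 81.6 against 42.9% in the lowest quartile and 97.5 against 92.4% in the highest. High-ranked RYBP peaks without Cbx2 therefore mostly met Ring1b, and 71.5% of them (337 of 471) met Ring1b without Mel18. The Ring1b list offered more peaks to meet, at 8434 against 4048 for Mel18, and the part of list length was not tested.

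Mel18 of undifferentiated ESCs was found at many of the same stretches. Of all Cbx2 peaks 64.6% and of all RYBP peaks 50.7% met an ESC Mel18 peak. The share was 77.6% for Cbx2 peaks with RYBP (interval 76.0 to 79.2) and 24.9% for those without (interval 22.0 to 27.8). For RYBP peaks it was 79.2% with Cbx2 (interval 77.8 to 80.5) and 26.7% without (interval 25.4 to 28.1). RYBP peaks without Cbx2 thus met Mel18 more often in the ESC list (26.7%) than in the MES list (12.3%), but the ESC list was the longer, with 6411 peaks against 4048 on these chromosomes. In Cbx2 peaks without RYBP the order was the opposite, at 24.9% in the ESC list and 43.2% in the MES list.

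Unshared Cbx2 peaks near RYBP met Mel18 more often than those far from it, mainly at low score rank. Those within 10 kb of RYBP met MES Mel18 in 55.2% of cases (212 of 384, interval 50.1 to 60.3), and those farther away in 33.9% (170 of 501, interval 29.8 to 38.3). Within score quartiles, a split added after the data were examined, these shares were 31.3% (52 of 166) and 13.0% (40 of 308) in the lowest, 61.1 and 59.5% in the second, 87.8 and 81.5% in the third and 100% of 18 and of 8 peaks in the highest. Ring1b differed less, at 40.6 and 34.9%, with overlapping intervals. For unshared RYBP peaks the Mel18 shares were 17.9% within 10 kb (40 of 224, interval 13.1 to 23.5) and 12.0% beyond (461 of 3842, interval 11.0 to 13.1). Their Ring1b shares were 66.1 and 62.3%, again with overlapping intervals. The 2 sets of unshared Cbx2 peaks were of like width, with medians of 1316 and 1208 bp.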

How the data were processed

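ChIP-seq peak lists of 5 libraries were used, of which the MES Cbx2 and RYBP lists form the comparison. The authors' deposited lists give a chromosome, start, end, MACS peak name and 1 score per peak; the deposited score has no stated scale, starts at 50 and piles up at 3100 in the Cbx2 list (325 peaks), so it served only as a rank within a list, ties broken by width and then position. Reads were placed on mm9, and Bowtie and TopHat are named, per the submitters' processing notes. The caller's settings, control, pooling of replicates and read depth are not given in the sources used here. Starts are printed counted from 1.

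Shares have exact Clopper-Pearson intervals and medians exact binomial intervals at 95%, for counting error only. No test was run, since each side has 1 library. Peaks named are the 5 highest-scoring of each class (shared Cbx2, Cbx2 without RYBP, RYBP without Cbx2), the 5 Cbx2 peaks with most RYBP peaks and the 5 widest of each list. The comparison, classes and lists were chosen with earlier results of these data known. Planned counts of gene starts and sequence content were not run, since no mm9 annotation or genome was used here. Alternatives were other overlap rules, list lengths, joining, sex chromosomes and removal of wide peaks. Counting used scipy 1.17.1, pandas 2.3.3 and numpy 2.4.6 under Python 3.11.15, and matplotlib 3.10.9 drew the plots. Overlap counts matched bedtools 2.31.1 in each direction between lists (0 peaks differed) and were right for all 3000 peaks of a simulated list.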

Additional observations from a re-analysis of the deposited data

Results flagged for a closer look

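The comparison left out the sex chromosomes, where both proteins also had peaks. On chromosome X, 42 of 78 Cbx2 peaks (53.8%, exact interval 42.2 to 65.2) met RYBP and 48 of 115 RYBP peaks (41.7%, interval 32.6 to 51.3) met Cbx2. The Cbx2 share lay under the lowest of any autosome, 67.9% on chromosome 9, while the RYBP share lay within the autosomes' range of 37.0 to 59.7%. Of 1 Cbx2 and 5 RYBP peaks on chromosome Y, 1 of each was shared.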

How the results depend on the processing

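No paired analysis was possible because Cbx2 and RYBP have 1 library each. Read depth was unknown, so list length could not be corrected for it. Of 49 recomputed values, 17 stayed within the interval of the value reported (for bases covered, within 1 percentage point) and 32 moved; the causes were not tested. With centres within 1 kb, 67.6% of Cbx2 and 33.0% of RYBP peaks were shared. Mel18 and Ring1b were then at 77.5 and 86.9% of Cbx2 peaks with RYBP, and at 14.6 and 56.9% of RYBP peaks without Cbx2. With the upper 50% of each list, 77.1% of Cbx2 peaks were shared, the width ratio was 1.72 and RYBP covered 45.9% of Cbx2 bases. Mel18 and Ring1b were then at 99.1 and 99.2% of Cbx2 peaks with RYBP, at 93.4 and 91.0% of those without, and at 33.2 and 85.0% of RYBP peaks without Cbx2; a peak counted there as unshared can meet a lower-ranked peak. With 3600 RYBP peaks, the shares were 55.4% of Cbx2 and 64.3% of RYBP peaks. With peaks within 1 kb joined they were 80.5 and 42.7%, and 8.85% of shared Cbx2 peaks held 2 or more RYBP peaks. Without Cbx2 peaks of 10 kb or more they were 73.9 and 36.5%, 8.25% held 2 or more, and RYBP covered 51.5% of Cbx2 bases. In the highest score class the centre rule gave 60.8% of Cbx2 and 52.3% of RYBP peaks as shared. Adding chromosomes X and Y moved neither share out of its interval.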

Other observations

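Some runs of peaks in 1 list had no peak of the other. Joining peaks within 10 kb of each other, the RYBP run without Cbx2 that had the most peaks lay at chr15:102740213-102872032, with 25 RYBP peaks, 0 MES Mel18 and 0 Ring1b peaks and 24 ESC Mel18 peaks. The Cbx2 run without RYBP that had the most peaks lay at chr9:89762802-89780270, with 6 Cbx2, 3 MES Mel18, 5 Ring1b and 4 ESC Mel18 peaks. The next Cbx2 runs by number of peaks, at chr17:27431879-27458891 and chr3:25431198-25455137, had 5 Cbx2 peaks each and 0 peaks of the other 4 lists. These runs were picked after their values were seen. Whether the proteins or only their peak calls were absent from them was not tested.

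Sharing varied between autosomes. The share of Cbx2 peaks on RYBP ran from 67.9% on chromosome 9 (129 of 190) to 79.7% on chromosome 5 (185 of 232). The share of RYBP peaks on Cbx2 ran from 37.0% on chromosome 15 (129 of 349) to 59.7% on chromosome 18 (139 of 233). Chromosome 15 combined a low share of RYBP peaks on Cbx2 with a high share of Cbx2 peaks on RYBP (78.7%, 111 of 141). Its 349 RYBP peaks include the run of 25 without Cbx2 named above, and the share without that run was not computed.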
